A study of Homo sapiens with 6 samples.

Results

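Precursor B cells carry a set of surface antigens that flow cytometry panels use to place them along the B lineage. The antigens described here were 8 genes given by symbol (CD24, CD52, CD38, MME, CD72, CD9, CD37 and CD81). The question was which of their transcripts a B cell leukemia line loses or retains when converted into induced macrophages (iMacs), with and without CTCF. Only RNA was analyzed here, and protein of the 8 antigens at the cell surface was not. All 8 were among the 30017 genes of the count table, and all 8 were among the 14758 genes tested. MME passed the filter on low counts only through the 0 h libraries, and CD52 did so mainly through the 96 h libraries, so that counts of members below describe the 8 genes and do not support a common direction.

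The libraries came from the BLaER subclone CTCF-AID, a human B cell leukemia line in which endogenous CTCF carries an auxin-inducible degron and in which the myeloid transcription factor C/EBPα can be switched on with estradiol. RNA was measured in 2 libraries at 0 h (no transdifferentiation factors, no IAA), in 2 control libraries at 96 h after the addition of estradiol, IL-3 and CSF-1 without IAA, and in 2 CTCF-depleted libraries at 96 h with the same factors plus IAA, the auxin that triggers degradation of the tagged CTCF protein. All groups share the degron, the CEBPA transgene and the origin from 1 subclone of 1 cell line. No library of a line without the degron treated with IAA was used, so that effects of CTCF loss and of IAA itself cannot be told apart, and the effects of the factors and of time in culture cannot be told apart at 96 h.

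The 8 antigens have different molecular forms. CD24 and CD52 are short, heavily glycosylated peptides held in the membrane by a GPI anchor. CD38 and MME (CD10, neprilysin) are ectoenzymes that act on NAD and on small peptides, and MME is the common acute lymphoblastic leukemia antigen of early B cells. CD72 is an inhibitory C-type lectin-like receptor that dampens B cell receptor signaling through the phosphatase PTPN6. CD9, CD37 and CD81 are tetraspanins, small membrane proteins that cross the membrane repeatedly and gather partner proteins into microdomains, with CD81 found in many cell types and CD37 known as a protein of mature B cells.

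Promoter sequence is shown for 4 antigens, 3 that fell and 1 that rose at 96 h, to place their start sites beside the expression values. RefSeq (GRCh38.p14) held windows for 6 of the 8 antigens, and the stretches printed lie within the 250 bases before a start site and outside annotated exons. The starts of the CD38, CD72 and CD52 windows are those of the canonical transcripts. CD24 has 3 windows, and the one nearest to its canonical start, 690 bases away, is shown. Capitals mark matches on either strand to GAGGAA, a core of PU.1 sites (CD72 and CD52), to CCCNNGGG, a palindromic core of EBF1 sites (CD24), and to AGGGGGC, a core of CTCF sites (CD38).
CD24 (chr6:106974040-106974289, minus strand): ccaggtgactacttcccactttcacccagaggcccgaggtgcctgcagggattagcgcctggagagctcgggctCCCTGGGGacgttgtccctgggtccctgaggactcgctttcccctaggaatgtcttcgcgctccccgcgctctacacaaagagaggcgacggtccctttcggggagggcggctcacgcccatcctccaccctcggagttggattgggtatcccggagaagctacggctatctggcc
CD38 (chr4:15778078-15778274, plus strand): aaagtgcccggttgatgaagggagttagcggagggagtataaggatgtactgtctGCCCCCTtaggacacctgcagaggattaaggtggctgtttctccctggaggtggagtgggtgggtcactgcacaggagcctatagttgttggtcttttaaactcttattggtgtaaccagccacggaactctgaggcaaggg
CD72 (chr9:35618438-35618663, minus strand): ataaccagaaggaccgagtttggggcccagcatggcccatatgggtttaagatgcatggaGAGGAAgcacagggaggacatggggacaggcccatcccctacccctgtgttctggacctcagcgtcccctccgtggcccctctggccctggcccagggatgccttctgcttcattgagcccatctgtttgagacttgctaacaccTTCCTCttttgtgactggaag
CD52 (chr1:26317708-26317957, plus strand): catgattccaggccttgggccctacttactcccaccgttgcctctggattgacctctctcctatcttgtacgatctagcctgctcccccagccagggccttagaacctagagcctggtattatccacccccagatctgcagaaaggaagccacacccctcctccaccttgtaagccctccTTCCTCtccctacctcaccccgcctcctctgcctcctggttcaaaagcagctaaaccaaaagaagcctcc
GAGGAA was in 23.6%, CCCNNGGG in 17.1% and AGGGGGC in 13.3% of 35116 RefSeq windows of that length. The search also covered TTGCNNAA (C/EBP), in 9.05% of windows, and TATAAA, in 10.7%, and none of the 6 windows held either. No matches overlapped each other. The matches describe letters and not binding.

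The tissue labels and the data were compared first. CTCF transcripts numbered 2235 and 2849 counts at 0 h, 2048 and 1875 in control and 2062 and 2051 in CTCF-depleted libraries. The log2 fold change of CTCF between CTCF-depleted and control libraries was 0.10 (SE 0.05, adjusted p = 0.119, edgeR quasi-likelihood test with Benjamini-Hochberg adjustment), and since the degron acts on the protein this transcript does not check the depletion. Total counts ranged from 9273470 to 12718780 per library. Of 7 B cell markers, 7 were lower in each 96 h group than at 0 h, and of 8 macrophage markers, 8 were higher. Of all tested genes, 22.9% were called lower and 25.4% higher in control, and 25.2% and 27.2% in CTCF-depleted cells. ITGAM, CD14, FCGR1A, MRC1, CD163 and LYZ had at most 6 counts in any 0 h library. They passed the filter on low counts only through the 96 h libraries, so that a rise was the only direction likely to be called. Marker lists of other cells were also summed. The T and NK cell list stood at 2.89 to 3.08 CPM (reads of a gene scaled to the depth of its library) at 0 h, 38.3 to 39.5 in control and 33.1 to 35.0 in CTCF-depleted libraries, with CD3D, CD3G, CD8B and CD7 at 0 in all groups. The erythroid and platelet list stood at 1.50 to 1.86, 25.8 to 27.2 and 27.9 to 29.6 CPM, with the globin genes HBA1, HBA2 and HBB at 0 throughout. The plasma cell list stood at 210 to 211, 322 to 324 and 346 to 354 CPM, and the granulocyte list at 0.722 to 0.975, 115 to 116 and 95.9 to 104.2 CPM. These sums rest on few genes. In the plasma cell list, XBP1 (98.5 to 232 CPM) and PRDM1 (1.35 to 75.7) rose from 0 h to control. MZB1 (104 to 14.8 CPM) and SDC1 (6.55 to 0.269) fell. At 96 h, most of the T and NK cell sum was NKG7 (34.7 CPM in control). Most of the erythroid and platelet sum was PPBP (17.3) and ITGA2B (9.14). The part of these genes in the results below was not tested.

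During conversion in control cells, 4 antigens fell, 2 rose and 2 did not pass the thresholds. CD24, MME, CD72 and CD38 fell, CD52 and CD37 rose, and CD9 and CD81 stayed within the fold threshold. A gene was called when its adjusted p was under 0.01 and its log2 fold change was beyond 0.6 in either direction. Against these 4 of 8 lower and 2 of 8 higher antigens, 22.9% of all tested genes were called lower and 25.4% were called higher in control iMacs. In CTCF-depleted iMacs, the same 4 antigens were lower and the same 2 were higher than at 0 h, beside 25.2% of all tested genes lower and 27.2% higher. Both comparisons use the same 0 h libraries. The median log2 fold change over the 8 antigens was -0.80 for control and -0.76 for CTCF-depleted cells, against 0.02 in each over all genes tested. In bulk RNA, fewer cells with a transcript and less of it per cell cannot be told apart.

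**Figure D1:**
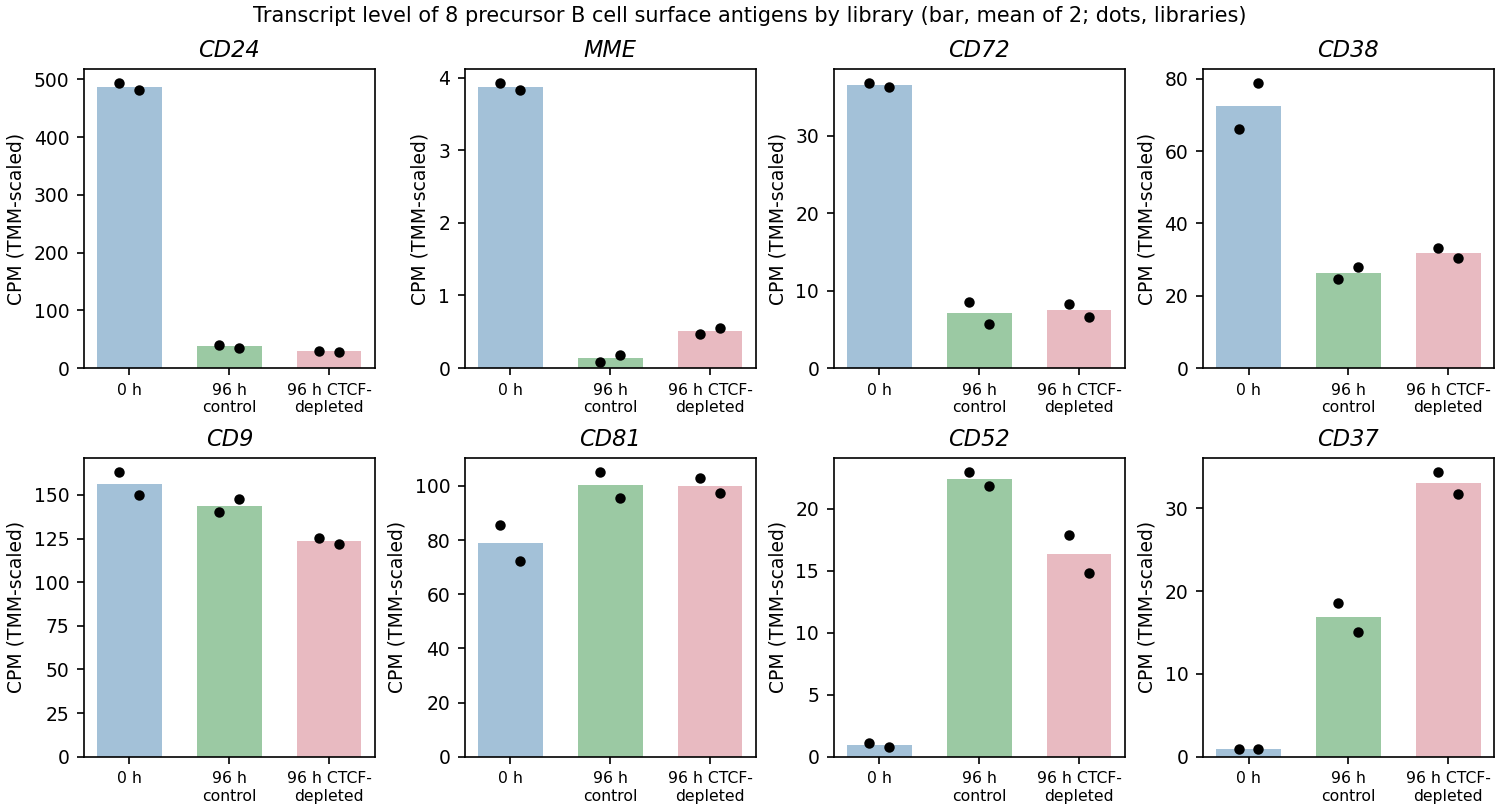
Transcript level of each antigen in CPM scaled by TMM (vertical axes, from 0, a separate scale for each gene) in the 3 groups, with bars for the mean of 2 libraries and dots for the libraries. CD24, MME, CD72 and CD38 stand highest at 0 h, CD52 and CD37 stand lowest there, and CD9 and CD81 each differ from 0 h by smaller folds.

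CD24, a GPI-anchored mucin-like antigen of immature B cells and a ligand of SIGLEC10, was the most abundant antigen at 0 h and lost most of its transcript. It had 4778 and 6428 counts at 0 h, 454 and 379 in control and 327 and 293 in CTCF-depleted libraries. Both 0 h libraries were far above all 4 libraries at 96 h, and the groups did not overlap. In TMM-scaled CPM, these values correspond to 487.5 ± 7.59 (SD, n = 2) at 0 h, 37.6 ± 3.51 in control and 28.6 ± 2.32 in CTCF-depleted cells, or 7.71% and 5.87% of the 0 h level. CD24 fell by a log2 fold change of -3.69 (SE 0.06, adjusted p = 1.42e-49, edgeR) with CTCF and -4.09 (SE 0.06, adjusted p = 9.24e-51) without it. CD24 (chr6:106969831-106975627, minus strand, GENCODE release 44, hg38) has 4 annotated pseudogene copies, which were not analysed here, and how reads that match several copies were counted is not given in the sources used here, so that its level is uncertain.

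MME, the peptidase known as CD10, was rare at 0 h and almost undetected in control iMacs. It had 38 and 51 counts at 0 h, 1 and 2 in control and 5 and 6 in CTCF-depleted libraries. The 3 groups did not overlap, and the 96 h libraries all lay near the lower end of what this depth can show. The ratio of the 0 h level to the control level was 28.5 with a 95% counting interval of 9.44 to 141, and the ratio of 0 h to CTCF-depleted was 7.61 (4.05 to 15.8). The fall was called in each comparison, with an adjusted p of 5.95e-11 in control and 2.63e-08 in CTCF-depleted cells (edgeR). Since MME passed the filter on low counts only through the 0 h libraries, a fall was the only direction likely to be called. MME (chr3:155024124-155183704, plus strand) shares 214 exon bases with the antisense gene MME-AS1, which was not analysed here.

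CD72, the inhibitory receptor, kept 20.4% of its 0 h level in CTCF-depleted and 19.4% in control cells. Its counts were 356 and 483 at 0 h, 96 and 61 in control, and 89 and 72 in CTCF-depleted libraries. The 0 h libraries were above all others, while the control and CTCF-depleted libraries overlapped. CD72 was lower than at 0 h by a log2 fold change of -2.36 (SE 0.14, adjusted p = 1.61e-22, edgeR) in control and -2.29 (SE 0.14, adjusted p = 4.31e-22) in CTCF-depleted cells. It lies at chr9:35609982-35646810 on the minus strand and shares 60 exon bases with TESK1 on the opposite strand, which had log2 fold changes of -0.50 and -0.31 from 0 h.

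CD38, the NAD-consuming ectoenzyme, fell least among the 4 antigens that fell. It had 642 and 1050 counts at 0 h, 280 and 301 in control, and 358 and 332 in CTCF-depleted libraries. Scaled to depth, the lower 0 h library had 66.2 CPM and the highest 96 h library had 33.1 CPM, so that the groups were apart although the 0 h libraries differed more from each other than those of the other antigens that fell. CD38 fell to 36.3% of its 0 h level in control cells, a log2 fold change of -1.47 (SE 0.09, adjusted p = 2.18e-22, edgeR), and to 44.0% in CTCF-depleted cells, a log2 fold change of -1.19 (SE 0.09, adjusted p = 5.08e-19). The gene lies at chr4:15778275-15853232 on the plus strand. Its neighbor and paralog BST1, also an NAD-consuming ectoenzyme, stood at 0.469, 0.858 and 0.970 CPM in the 3 groups and was not called in any comparison.

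CD52 and CD37 went the other way. CD52, the target of the antibody alemtuzumab and an antigen of lymphocytes and monocytes, had 11 and 11 counts at 0 h, 260 and 236 in control, and 193 and 161 in CTCF-depleted libraries. Every 96 h library was above both 0 h libraries. CD52 rose by a log2 fold change of 4.53 (SE 0.22, adjusted p = 3.64e-26, edgeR) with CTCF and 4.08 (SE 0.24, adjusted p = 5.50e-23) without it, from a 0 h level of 0.980 CPM. CD52 (chr1:26317958-26320523, plus strand) shares 25 exon bases with UBXN11 on the opposite strand, and UBXN11 also rose, with log2 fold changes of 2.47 in control and 2.17 in CTCF-depleted cells. The strand setting of the counting is not given in the sources used here, so that reads of the 2 genes in their shared bases cannot be told apart.

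CD37, a leukocyte tetraspanin, had 9 and 13 counts at 0 h, 211 and 163 in control, and 371 and 344 in CTCF-depleted libraries. The 3 groups did not overlap, and the CTCF-depleted libraries were the highest. CD37 rose by a log2 fold change of 4.13 (SE 0.23, adjusted p = 7.45e-24, edgeR) in control and 5.09 (SE 0.20, adjusted p = 1.37e-30) in CTCF-depleted cells. The gene lies at chr19:49335171-49343335 on the plus strand, where TEAD2 on the opposite strand shares 319 exon bases and had at most 2 counts in any library.

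Transcripts of CD9 and CD81, tetraspanins found in many cell types, were retained within the fold threshold. CD9 had 1580 and 2000 counts at 0 h, 1588 and 1592 in control, and 1356 and 1326 in CTCF-depleted libraries. In CPM, each group was above the next without overlap, but the steps were small. Its log2 fold change from 0 h was -0.12 (SE 0.06, adjusted p = 0.0509, edgeR) in control and -0.33 (SE 0.06, adjusted p = 6.02e-07) in CTCF-depleted cells. CD81 had 829 and 965 counts at 0 h, 1190 and 1030 in control and 1110 and 1058 in CTCF-depleted libraries. All 4 libraries at 96 h were above both 0 h libraries in CPM. The log2 fold change was 0.35 in each comparison (SE 0.07, adjusted p = 1.45e-05 in control and 1.54e-05 in CTCF-depleted cells), under the fold threshold. CD9 lies at chr12:6199715-6238271 and CD81 at chr11:2376177-2397802, both on the plus strand.

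**Figure D2:**
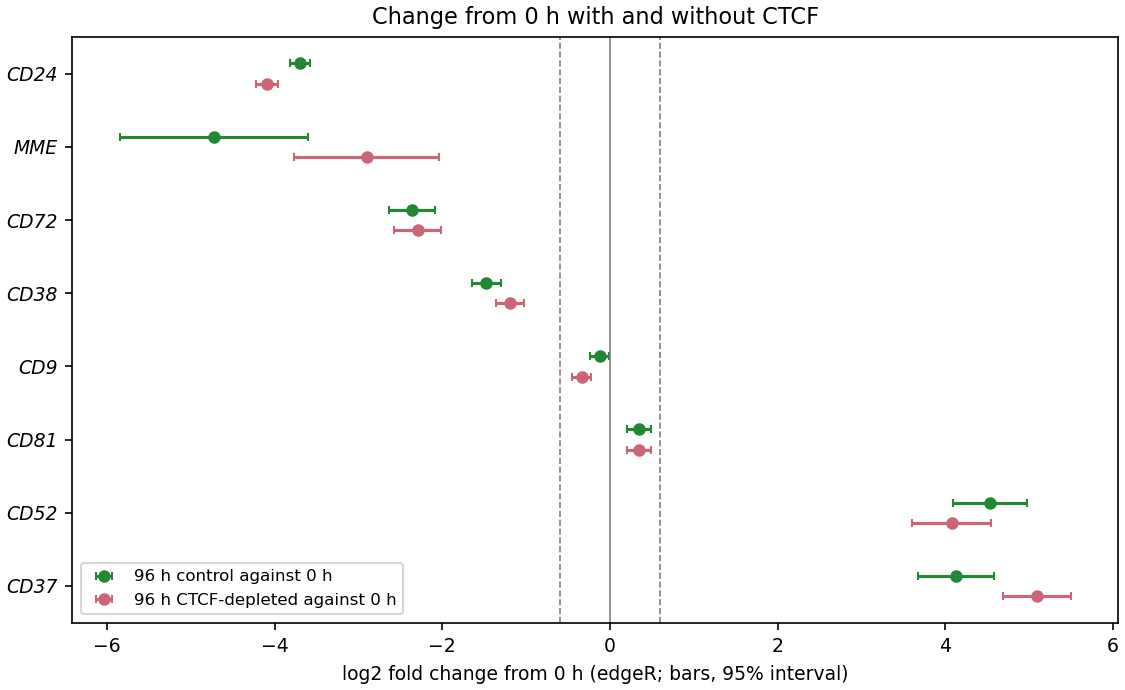
Log2 fold change from 0 h (horizontal axis) of each antigen at 96 h with and without CTCF, with 95% intervals from the edgeR fit and dashed lines at the threshold of 0.6. CD24, MME, CD72 and CD38 lie below -0.6 and CD52 and CD37 lie above 0.6 in both, and CD9 and CD81 lie between the lines.

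The make-up of the set changed with these shifts. The 8 antigens summed to 850 and 825 CPM at 0 h, 360 and 349 in control, and 353 and 331 in CTCF-depleted libraries. CD24 provided 58.0% and 58.4% of the reads of the 8 antigens at 0 h, 11.1% and 10.1% in control, and 8.58% and 8.16% in CTCF-depleted libraries. The share of CD9 was 19.2% and 18.2% at 0 h, 38.9% and 42.3% in control, and 35.6% and 36.9% in CTCF-depleted libraries. CD9 thus took the place of CD24 as the antigen with the most reads in all 4 libraries at 96 h.

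To compare levels between genes, CPM was divided by the length of all annotated exons in kb. At 0 h, CD24 had the highest level per kb (157), followed by CD9 (26.8), CD72 (12.5), CD38 (10.6), CD81 (9.89), CD52 (1.05), MME (0.393) and CD37 (0.229), and only the library ranges of CD38 and CD81 overlapped. In control iMacs, the order of levels per kb was CD9 (24.7), CD52 (24.0), CD81 (12.5), CD24 (12.1), CD37 (4.05), CD38 (3.83), CD72 (2.41) and MME (0.0139). The ranges of CD9 and CD52, of CD81 and CD24, and of CD37 and CD38 overlapped. In CTCF-depleted iMacs, the order per kb was CD9 (21.2), CD52 (17.5), CD81 (12.5), CD24 (9.25), CD37 (7.94), CD38 (4.65), CD72 (2.54) and MME (0.0515), with no overlap between neighbors. With the length of the canonical transcript instead, an alternative added after the data were seen, CD81 ranked above CD72 and CD38 at 0 h and above CD52 in each 96 h group. By that length, CD37 also ranked above CD24 in CTCF-depleted cells, and MME ranked below CD37 at 0 h.

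The direct test of CTCF depletion at 96 h called 1 of the 8 antigens. CD37 was higher in CTCF-depleted than in control iMacs, 1 of 8 beside 5.41% of all tested genes called higher, and 0 of 8 antigens were called lower beside 7.03% of all tested genes. CD37 stood at 33.0 ± 1.88 CPM (SD, n = 2) in CTCF-depleted and 16.9 ± 2.49 CPM in control cells, and its lower CTCF-depleted library (31.7) was above its higher control library (18.6). The log2 fold change was 0.97 (SE 0.12, 95% interval 0.73 to 1.20, adjusted p = 9.68e-10, edgeR). DESeq2 also called 0 lower. At an unadjusted p below 0.05 in edgeR, 3 of the 8 were higher and 3 were lower. The share of all tested genes at that cutoff is not given, so that these counts show no common direction. Libraries of the compared groups did not overlap for 6 of the 8. The share of all tested genes without overlap was not computed, so that this count is not read as an effect on the antigens.

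CD24, CD52 and CD9 passed the threshold on the adjusted p but not that on the fold. Relative to control, the log2 fold change in CTCF-depleted cells was -0.39 for CD24 (SE 0.08, adjusted p = 8.80e-05, edgeR), -0.45 for CD52 (SE 0.13, adjusted p = 0.00411) and -0.22 for CD9 (SE 0.06, adjusted p = 0.00198). For each of the 3, both CTCF-depleted libraries were below both control libraries. Over the alternatives, the adjusted p reached up to 0.0491 for CD24, 0.170 for CD52 and 0.146 for CD9, and none of them brought a fold past 0.6.

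CD38 and MME had higher values in CTCF-depleted libraries but did not pass the threshold on the adjusted p. The log2 fold change of CD38 was 0.28 (SE 0.10, 95% interval 0.08 to 0.47, adjusted p = 0.0189, edgeR). The ratio of MME levels, CTCF-depleted over control, was 3.75 with a counting interval of 0.990 to 20.9 from 11 and 3 counts (adjusted p = 0.0964). CD72 and CD81 had overlapping libraries. Their log2 fold changes were 0.07 (95% interval -0.29 to 0.43, adjusted p = 0.804) and -0.00 (-0.14 to 0.14, adjusted p = 0.989), and these intervals lie inside the fold threshold of 0.6. The median log2 fold change of the 8 antigens was 0.03, and that of all genes tested -0.03.

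**Figure D3:**
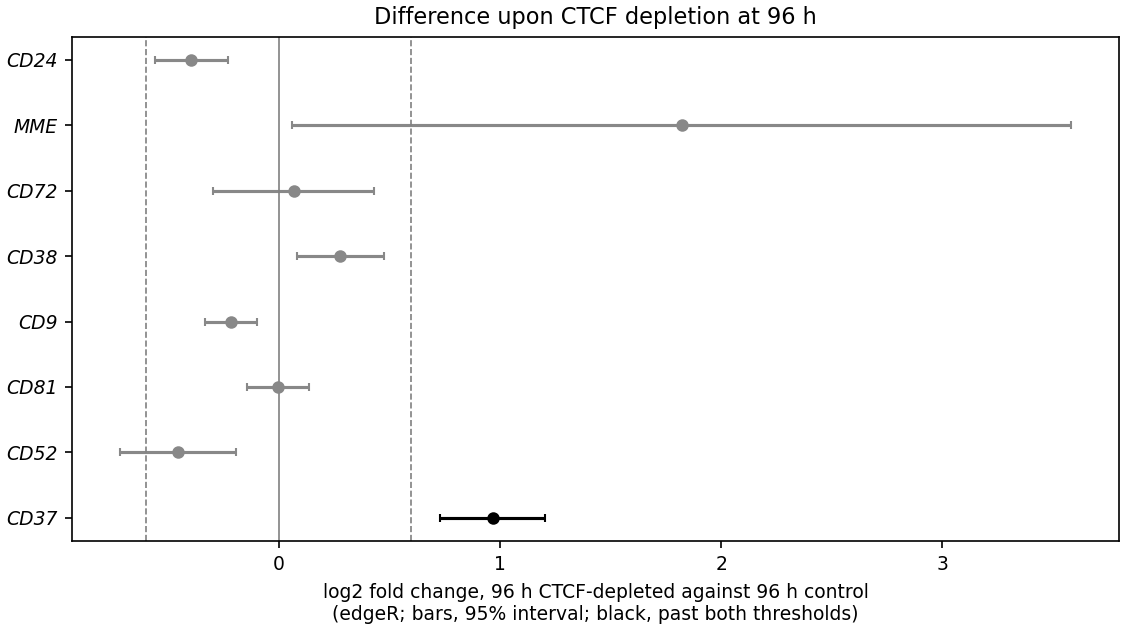
Log2 fold change between CTCF-depleted and control cells at 96 h (horizontal axis) for each antigen, with 95% intervals from the edgeR fit, dashed lines at the fold threshold of 0.6 and black for genes past both thresholds. CD37 is the antigen in black, and the interval of MME, which rests on 11 and 3 counts, is the widest.

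The tetraspanin family gave a wider view of CD9, CD37 and CD81. Of 18 other tetraspanins tested, 9 rose and 6 fell in control iMacs, and the same numbers did so in CTCF-depleted iMacs, with median log2 fold changes of 0.60 and 0.62. The shares over all tested genes were 25.4% higher and 22.9% lower for control and 27.2% and 25.2% for CTCF-depleted cells. The family members that rose in control cells included CD53, a leukocyte tetraspanin (log2 fold change 1.17), CD151, a partner of laminin-binding integrins (1.50), and CD82 (2.99). TSPAN32 had 0 counts in both 0 h libraries and 403 and 363 in control libraries, at least 129-fold higher against a floor of 3 counts per library. TSPAN13 (-3.05), TSPAN2 (-2.29), TSPAN17 (-1.30) and TSPAN3 (-0.90) fell. Upon CTCF depletion, 2 of the 18 were higher than in control, TSPAN13 (log2 fold change 2.17) and TSPAN32 (0.63), and 1 was lower, TSPAN15 (-0.62), which DESeq2 did not call. The shares over all tested genes there were 5.41% higher and 7.03% lower. Levels of TSPAN13 were 36.3 CPM at 0 h, 4.37 in control and 19.7 in CTCF-depleted cells. Unlike CD37, which was highest in CTCF-depleted cells, TSPAN13 was highest at 0 h.

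**Figure D4:**
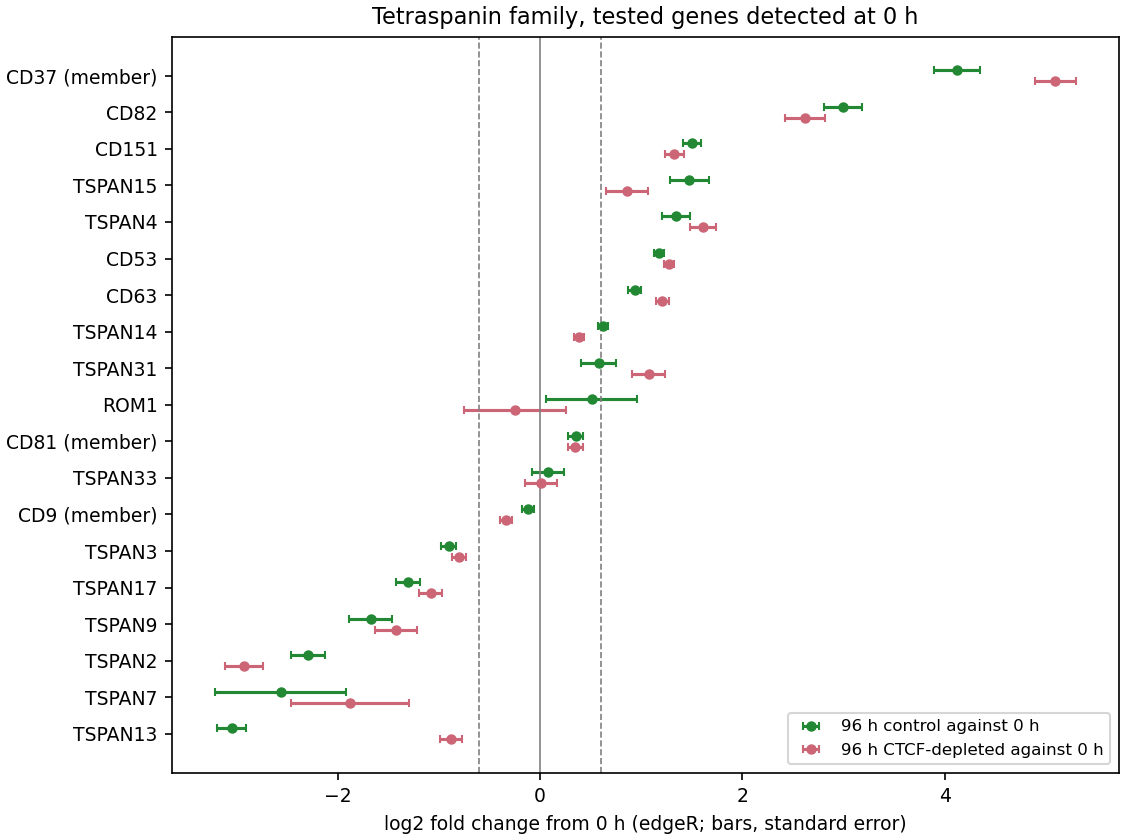
Log2 fold change from 0 h (horizontal axis) in control and CTCF-depleted cells for 19 tetraspanin genes with counts at 0 h, the 3 antigens among them, with standard errors and dashed lines at the fold threshold of 0.6. CD37 has the highest value of the genes plotted in both groups, CD81 and CD9 lie near 0, and TSPAN13 shows the widest gap between the groups.

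Partners and ligands of the antigens changed from 0 h about as often as genes in general. Of 12 tested, 3 rose and 4 fell in control iMacs and 3 rose and 3 fell in CTCF-depleted iMacs, beside 25.4% of all genes higher and 22.9% lower in control and 27.2% and 25.2% in CTCF-depleted cells. Between CTCF-depleted and control cells, 2 were higher and 0 lower by edgeR, beside 5.41% and 7.03% of all genes. DESeq2 called 0 of them lower as well. At an unadjusted p below 0.05 in edgeR, 5 were higher and 2 were lower, and the share of all tested genes at that cutoff is not given. PTPN6, the phosphatase recruited by CD72, fell by 1.08 on the log2 scale in control cells, and CD72 fell by 2.36. ITGA4, an integrin subunit that associates with tetraspanins, fell by 1.02, and ITGB1 rose by 0.93. PECAM1, a proposed ligand of CD38, rose by 5.32. PTGFRN, a direct partner of CD9 and CD81, had 0 counts at 0 h and 7.04 CPM in control cells, at least 26.3-fold higher. SIGLEC10, an inhibitory receptor for CD24, fell in control cells by 1.66 and was higher in CTCF-depleted than in control cells by a log2 fold change of 1.38 (165 and 242 counts at 0 h, 67 and 56 in control, 155 and 159 in CTCF-depleted libraries). IGSF8, another partner of CD9 and CD81, was higher upon CTCF depletion (0.75).

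CD38 and MME were also set beside other surface ectoenzymes. Of 14 tested, 9 rose and 3 fell in each 96 h group relative to 0 h. Of all tested genes, 25.4% rose and 22.9% fell in control and 27.2% and 25.2% did so in CTCF-depleted cells, so that the share of ectoenzymes that fell was near that of all genes. ANPEP, the myeloid aminopeptidase CD13, rose by 7.70 on the log2 scale in control cells, ADAM17 by 1.84 and ADAM10 by 1.08. GGT5 had 0 counts at 0 h and 32.0 CPM in control cells, at least 120-fold higher. ENPP1, ECE2 and CPM fell, with log2 fold changes of -4.84, -1.37 and -0.65. Upon CTCF depletion, ENPP3 was higher (1.99 CPM against 0.0463 in control, the latter from 1 count), and ENTPD1 (-0.79) and ACE (-1.44) were lower by edgeR, and DESeq2 called 0 ectoenzymes lower. Of all tested genes, 5.41% were higher and 7.03% lower in that comparison by edgeR.

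Among 18 other B lineage surface molecules tested, 12 fell and 5 rose in control iMacs, and 11 fell and 5 rose in CTCF-depleted iMacs. Over all tested genes, 22.9% fell and 25.4% rose in control and 25.2% and 27.2% did so in CTCF-depleted iMacs, so that the 5 of 18 that rose were near the general share. The strongest falls by adjusted p in control cells were those of IL7R, the interleukin 7 receptor of precursor B cells (log2 fold change -4.09), the surrogate light chain genes IGLL1 (-6.85) and VPREB1 (-3.56), and CD48 (-5.56). IL7R had 14876 and 20911 counts at 0 h and 987 and 1028 in control libraries, and was, as CD24 was, abundant at 0 h and low at 96 h. CD180 (3.09) and CXCR4 (0.87) rose, and FCER2 had 0 counts at 0 h and 3.49 CPM in control cells, at least 13.1-fold higher. Upon CTCF depletion, 4 of the 18 were higher and 8 lower than in control, among them CD22, an inhibitory receptor of B cells (1.47), CXCR4 (-0.79) and IL7R (-0.88). In that comparison, 5.41% of all tested genes were higher and 7.03% lower. CD22 had 368 and 401 counts in control and 1057 and 1034 in CTCF-depleted libraries, against 1795 and 2391 at 0 h.

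Of 26 myeloid surface molecules tested, 25 rose and 0 fell in control iMacs by edgeR (1 fell by DESeq2, and 1 was lower in edgeR when an unadjusted p below 0.05 was used), and 24 rose and 1 fell in CTCF-depleted iMacs. These counts stand against 25.4% of all tested genes higher in control and 27.2% in CTCF-depleted iMacs. Of the 26, 9 had no counts at 0 h and passed the filter on low counts only through the 96 h libraries. Against 0 h they could only be called higher, as could genes of the other lists without counts at 0 h. ITGAM, CD14, MRC1, CD33, CD86, CSF2RA, TREM1, CCR1 and C5AR1 had at most 9 counts in any 0 h library. These genes also passed the filter only through the 96 h libraries, so that a rise was the only direction likely to be called for them. The number that rose therefore describes the list and does not support a common direction. The median log2 fold change of the list was 6.94 in control cells, or 5.58 with 9 genes that had no counts at 0 h set to their lower bound. SIRPA (5.20), ITGAM (7.91) and CSF1R (3.05) rose, and ITGAX had 0 counts at 0 h and 120 CPM in control cells, at least 450-fold higher. The rises of CD52 (4.53) and CD37 (4.13) were of a size between those of CSF1R and SIRPA. Upon CTCF depletion, 3 of the 26 were higher and 5 lower, with ITGAM (1.15) and CD86 (0.85) higher and CD36 (-1.54) and MRC1 (-1.33) lower. Beside them, 5.41% of all tested genes were higher and 7.03% lower. The value of CD37 in that comparison (0.97) lay between those of CD86 and ITGAM.

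Genes with the most similar pattern were taken from all tested genes, by the distance between log2 CPM profiles over the 6 libraries after each was centered on its own mean. CD9 was nearest to TOP3A (distance 0.06) and RPAP1 (0.07), CD81 to TBC1D17 (0.07) and ZNF785 (0.09), and CD38 to PRMT6 (0.12) and ANTXR1 (0.16). CD52 was nearest to TBC1D2 (0.18) and LOC101927520 (0.21), and CD37 to LINC00211 (0.23) and VSTM1 (0.37). A gene near in pattern to CD24 was LRMP (0.29), CD72 was nearest to FAM163B and GREB1 (0.26 and 0.30), and MME to AJUBA (0.40) and KCNK9 (0.43). Among the antigens, the closest pair was CD9 and CD81 (0.72), followed by CD38 and CD72 (1.31), while the distance between CD37 and CD52 was 1.52. The 6 libraries form 3 groups, so that these distances mainly describe group means. A prior count of 2 entered the log2 CPM and flattens profiles of genes near 0, so that near genes can differ in fold. LINC00211 and VSTM1 stood at 0 CPM at 0 h, with log2 fold changes of 7.94 and 8.10 in control, against 4.13 for CD37. FAM163B (1.00 CPM at 0 h, 0.0441 in control) and KCNK9 (2.81 and 0.0463) were also near the floor in control.

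The chromosomal neighborhoods did not share 1 direction with the antigens. Of the 16 nearest tested genes on either side, 6 rose and 2 fell in control iMacs, 4 rose and 2 fell in CTCF-depleted iMacs, and 1 was higher and 1 lower in CTCF-depleted than in control cells. The shares of all tested genes in the same order were 25.4% and 22.9%, 27.2% and 25.2%, and 5.41% and 7.03%. C6orf203, the tested gene nearest to CD24 at a gap of 52.6 kb, was not called (-0.02 with and -0.08 without CTCF), while QRSL1, 301 kb away on the other side, fell (-2.70 and -2.83). SIT1, 2.49 kb from CD72 and also a regulator of lymphocyte receptor signaling, fell in each group (-1.29 and -1.74). TNFRSF1A, 90.5 kb from CD9, rose (2.84 and 2.91), and VWF on the other side of CD9 was lower in CTCF-depleted than in control cells (-1.97, from 2.75 to 0.693 CPM). TSPAN32, itself a tetraspanin and 58.0 kb from CD81, was the neighbor that was higher upon CTCF depletion (0.63), while CD81 differed by -0.00. Next to CD37, TRPM4 rose from 0 h (2.09 and 2.25) but differed by 0.16 between CTCF-depleted and control cells (adjusted p = 0.451, edgeR), and PIH1D1 differed by -0.46 there, under the fold threshold.

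For 2 libraries against 2, the smallest two-sided p of an exact permutation test is 0.333, and the p-values above therefore rest on a spread estimated across all genes. The libraries were called biological replicates by the study's methods. The spread behind the p-values is that between libraries of the same subclone, pooled across genes. Variation between subclones or cell lines was not measured.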

How the data were processed

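RNA-seq was measured in 6 libraries, 2 for each of 3 groups. The values are raw gene counts as deposited by the authors, who processed the reads with the nf-core/rnaseq pipeline, aligned them to hg38 with STAR (version 2.6.1d) and counted protein-coding exons with featureCounts (version 2.0.6). The table also holds genes that are not protein-coding, such as LINC00211 and CD81-AS1, so that the counting was wider than that description. The annotation release and the strand setting of the counting are not given in the sources used here. Counting errors of intervals cover sampling of reads only, since reads carry no molecular identifiers.

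Counts were analyzed with edgeR 4.0.16 in R 4.3.3 (filterByExpr, TMM, quasi-likelihood fit of all 6 libraries with condition as the only term, Benjamini-Hochberg adjustment over 14758 genes). The thresholds of 0.01 and 0.6 are those of the study's methods. The biological coefficient of variation was 3.96% and the prior degrees of freedom were 51.7. On simulated data, the fit for the comparison of CTCF-depleted and control cells recovered 97 of 100 genes changed 2-fold and 100 of 100 changed 4-fold, with 0 false calls among 14498 genes. Changes were planted only in genes above a minimum level in control, and the simulated counts had the same biological spread for every gene. Genes with few counts in control, such as MME, were therefore not among those changed. The recovery and the false calls hold for that setting only, and recovery was summarized by size of change only. CPM values use TMM-scaled library sizes. The interval of the MME ratio is an exact binomial one at 95%. Positions came from GENCODE release 44 and covered 91.8% of tested genes. Summaries used Python 3.11.15 with pandas 2.3.3 and scipy 1.17.1.

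The 8 members, the gene lists and the rules were chosen with earlier results of these data known. Named genes were the 8 members, up to 4 genes a list with the smallest adjusted p in CTCF-depleted against control and, per direction, in control against 0 h, the 2 genes nearest in pattern to each member, and the nearest tested gene on each side. Alternatives were DESeq2 1.42.0, RLE scaling, no filter, at least 10 counts in every library, only the 4 libraries compared, a replicate block, other thresholds, and leaving out each library. Values of a few named genes are not reported here.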

Additional observations from a re-analysis of the deposited data

Results flagged for a closer look

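CD37 was singled out because its change from 0 h differed between cells with and without CTCF in a direct test. Its log2 fold change was 0.97 higher in CTCF-depleted than in control cells (SE 0.12, adjusted p = 9.68e-10, edgeR quasi-likelihood test with Benjamini-Hochberg adjustment), and both CTCF-depleted libraries (34.4 and 31.7 CPM) were above both control libraries (18.6 and 15.1 CPM). Outlying samples were not tested for, since each group has 2 libraries.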

How the results depend on the processing

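For the 8 antigens, no alternative reversed a direction that was called. The number of antigens called was 6 in each comparison with 0 h and 1 in the comparison of CTCF-depleted with control cells under DESeq2, RLE scaling, no filter, only the 4 libraries compared and every fit without 1 library, with 2 higher and 4 lower in each of the former. Requiring at least 10 counts in every library removed CD37 and MME, which left 1 antigen called higher in control, 1 called higher in CTCF-depleted cells against 0 h, and 0 called and 0 higher between CTCF-depleted and control cells. In that last comparison, an adjusted p below 0.05 without a fold threshold gave 5 called, 2 higher and 3 lower, and an absolute log2 fold change above 1 gave 0 called and 0 higher. CD37 ranged from 0.86 to 1.16 there without 1 library, with 1.16 without control replicate 1 and 0.86 without control replicate 2. MME had no value in the fit of only the 4 libraries at 96 h. With the replicate block, the log2 fold change of CD37 was 0.97 between CTCF-depleted and control cells, and the block changed no call of an antigen. The replicate numbers were not taken as pairs, as the deviations of same-numbered libraries had correlations of -0.0194, 0.0109 and -0.0294 across genes. Neither RLE scaling nor the filters moved the median of all genes by more than 0.1. Depth limits MME in control cells and CD37 and CD52 at 0 h.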
